A study of Homo sapiens with 12 samples.

Results

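The genes described here encode the Wnt ligands, their receptors and secreted antagonists, and the β-catenin branch inside the cell. They were chosen by symbol: every WNT and FZD gene, SFRP1, SFRP2, SFRP4 and SFRP5, FRZB, DKK1 to DKK4, RSPO1 to RSPO4, LGR4 to LGR6, LRP5, LRP6, ROR1, ROR2, CTNNB1, APC, AXIN1, AXIN2, NKD1, NKD2, LEF1, TCF7, TCF7L1 and TCF7L2. These are 59 of the 55765 gene symbols counted, and each matched 1 gene of the hg19 (GRCh37) annotation.

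Wnt proteins are secreted lipid-modified ligands that bind a frizzled receptor together with a co-receptor. When LRP5 or LRP6 is engaged, the complex of APC, AXIN and kinases that marks β-catenin for destruction is held back, and β-catenin enters the nucleus and joins a TCF or LEF factor on DNA. When ROR1 or ROR2 is engaged, the signal runs to the cytoskeleton without β-catenin. Frizzled-related proteins (SFRP, FRZB) bind the ligands, Dickkopf proteins (DKK) bind LRP5 and LRP6, and R-spondins acting through LGR receptors keep frizzled proteins at the cell surface. In the neural crest, from which neuroblastoma arises, Wnt signals are known for their part in induction and migration of cells.

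All 12 samples were of SH-SY5Y, a human neuroblastoma line derived from SK-N-SH, and all received 10 μM all-trans retinoic acid (ATRA) for 7 days, which turns these cells into neuron-like cells. In the co-treatment experiment, 3 samples received H2O2 together with ATRA throughout the 7 days and 3 control samples received ATRA without H2O2. In the pre-treatment experiment, 3 samples were given H2O2 starting 72 h before ATRA and 3 control samples were not. The H2O2 dose reads 10 mM in the sample records and 10 μM in the methods text. The methods describe 10 μM as the lowest of several micromolar doses tried, chosen because it had the least adverse effects on the cells. The dose is therefore read here as 10 μM, although the sample records differ. A single cell line was used, and cells without ATRA were not analysed here.

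Libraries were made from total RNA after removal of ribosomal RNA, and 27576276 to 98287391 reads were counted on genes per library. The Wnt genes took 0.24% to 0.309% of these reads. Levels are given as CPM, the counts scaled to library size with TMM factors, and 3 counts correspond to 0.0305 to 0.109 CPM depending on the library. Of 12 noradrenergic neuroblastoma markers 11 averaged over 1 CPM, and their summed level was 3913 to 5548 CPM. Mesenchymal markers summed to 343 to 503 CPM, whereas glial, epithelial and blood or endothelial markers summed to at most 8.28, 11.6 and 0.704 CPM. Among the pre-treatment controls, replicate 3 and the pair of replicates 1 and 2 stood apart from each other. Reads outside annotated exons numbered 0.2 per read on a gene in replicate 3, against 0.8 and 0.83 in replicates 1 and 2. They numbered 0.343 to 0.462 in the treated libraries and 0.263 to 0.429 in the co-treatment experiment. Small structured RNAs took 17.6% of the gene reads of replicate 3, against 1.63% and 2.92% in replicates 1 and 2. They took 13.3% to 15.1% in the treated libraries and 5.08% to 13.1% in the co-treatment experiment. Replicates 1 and 2 thus lay above all other libraries in the former measure and below all of them in the latter, with replicate 3 at the opposite end. Pre-treatment calls are therefore given with and without control replicate 3.

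Upstream windows are shown for TCF7, the Wnt gene with the smallest adjusted p in the pre-treatment fit without control replicate 3, and for DKK1, an abundant antagonist known as a target of β-catenin, because each holds one of the motifs sought. The windows are the 250 bases before the transcription start from RefSeq on GRCh38.p14, where 42 of the 59 genes had an entry (51 windows). Capitals mark AGGTCA, the half-site of retinoic acid receptors, and CTTTGA, the core bound by TCF and LEF factors, on either strand. The TCF7 window printed, that of TCF7 start 1, is chr5:134115363-134115612 on the plus strand. That of TCF7 start 2 (chr5:134123368-134123617) holds neither motif and is not printed. The DKK1 window is chr10:52314031-52314280 on the plus strand.
TCF7: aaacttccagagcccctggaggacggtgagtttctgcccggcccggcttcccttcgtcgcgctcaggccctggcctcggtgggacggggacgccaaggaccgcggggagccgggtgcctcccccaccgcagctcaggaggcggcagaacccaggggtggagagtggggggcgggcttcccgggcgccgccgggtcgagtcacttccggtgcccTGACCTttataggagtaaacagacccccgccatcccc
DKK1: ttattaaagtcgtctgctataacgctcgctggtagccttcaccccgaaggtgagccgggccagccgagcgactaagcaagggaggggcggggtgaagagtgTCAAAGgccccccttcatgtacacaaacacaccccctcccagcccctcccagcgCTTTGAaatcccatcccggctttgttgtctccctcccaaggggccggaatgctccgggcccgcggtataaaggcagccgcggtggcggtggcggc
In the TCF7 window, AGGTCA lay on the minus strand, and its leftmost base as printed was 37 bases before the start. In the DKK1 window, the leftmost bases of CTTTGA as printed were 149 bases (minus strand) and 95 bases (plus strand) before the start. AGGTCA was present in 4 of the 51 windows (7.84%), those of TCF7, TCF7L2, LGR6 and WNT16, and in 12.1% of all 35116 windows. CTTTGA was present in the DKK1 window alone among the 51 (1.96%) and in 11.2% of all windows. The 2 motifs share no bases in the windows printed. A match describes the letters and does not show binding.

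The Wnt genes ranged in level from CTNNB1, with 708 CPM or more in every library, to genes without a read. WNT9B and FZD10 had 0 counts in all 12 libraries, which allows up to 0.109 CPM in the shallowest of them. A further 22 genes stayed under 1 CPM in every library, so that 24 of the 59 did. At the other end, 20 genes reached 10 CPM in all libraries and 5 reached 100 CPM in all of them. The plot of levels per kilobase shows each gene in each library.

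**Figure D1:**
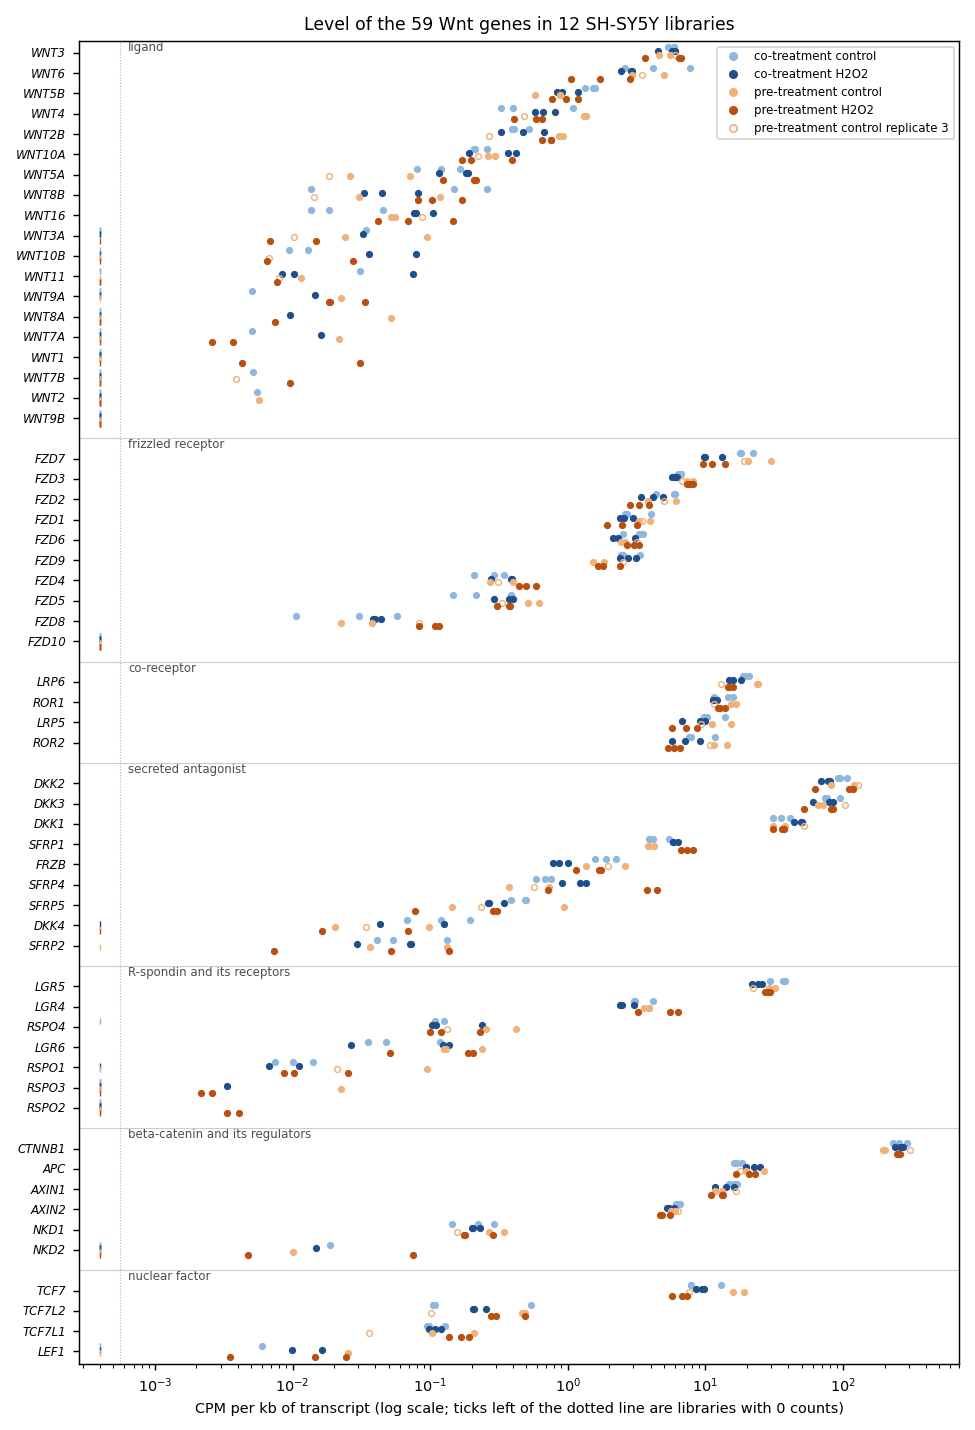
Level of the 59 Wnt genes as CPM per kilobase of canonical transcript (horizontal log axis) in 12 libraries, grouped by role and ordered by mean level. Each point is a library, coloured by group, open circles are pre-treatment control replicate 3, and ticks at the left edge are libraries with 0 counts; CTNNB1 lies highest, at 193 to 304 CPM per kb.

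Levels of different genes are compared here as CPM per kilobase of the canonical transcript, with the mean and SD over 12 libraries. Among the 19 ligands, WNT3 was the most abundant, at 5.53 ± 0.858 CPM per kb. WNT6 followed at 3.31 ± 1.73 CPM per kb, and these levels overlapped between libraries. WNT5B, WNT4 and WNT2B lay at 1.05, 0.723 and 0.584 CPM per kb, and 13 ligands stayed under 1 CPM in all libraries. WNT3 made up 34.1% to 61.3% of the ligand sum, depending on the library.

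FZD7 was the most abundant frizzled, at 16.3 ± 6.21 CPM per kb, ahead of FZD3 at 6.91 ± 0.805 CPM per kb. FZD2, FZD1, FZD6 and FZD9 lay between 4.47 and 2.36 CPM per kb, FZD4 and FZD5 at 0.367 and 0.362 CPM per kb, and FZD8 at 0.056 CPM per kb. The 4 co-receptors were all well expressed, from LRP6 at 17.8 ± 3.6 CPM per kb through ROR1 at 13.3 ± 1.91 and LRP5 at 9.75 ± 2.75 to ROR2 at 8.62 ± 2.84 CPM per kb. The ranges of neighbouring co-receptors overlapped.

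Of the Dickkopf antagonists, DKK1, DKK2 and DKK3 were more abundant than the ligands, while DKK4 averaged 0.0658 CPM per kb. DKK2 stood at 95 ± 21.5 CPM per kb, DKK3, a divergent member of the family, at 77.3 ± 14.1 and DKK1 at 39.8 ± 7.79 CPM per kb. The place of DKK3 above DKK1 depends on the canonical length, which is 2.525 kb for DKK3. All exons of DKK3 together span 11.958 kb and those of DKK1 2.221 kb. USP47, on the other strand, overlaps DKK3. The ligand sum was 7.99 to 17.3 CPM per kb in a library, so the lowest DKK1 value, 30.9 CPM per kb, exceeded the highest ligand sum. SFRP1 had 5.46 ± 1.49 CPM per kb, and the other frizzled-related genes averaged 1.57 CPM per kb or less. No R-spondin gene averaged more than 0.162 CPM per kb, while the receptor LGR5 had 28.6 ± 5.09 and LGR4 3.71 ± 1.17 CPM per kb.

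Inside the cell, CTNNB1, which encodes β-catenin, stood at 249.7 ± 31.9 CPM per kb, the highest of the 59 by canonical length. Its rank above DKK2 depends on that length, since all exons of CTNNB1 together span 11.8 kb and those of DKK2 4.335 kb. APC had 20.3 ± 3.39, AXIN1 14.1 ± 2.04 and AXIN2, itself a target of β-catenin, 5.7 ± 0.597 CPM per kb. Of the 4 DNA-binding partners of β-catenin, TCF7 was the one clearly expressed, at 9.9 ± 4.04 CPM per kb. TCF7L2 and TCF7L1 averaged 0.295 and 0.124 CPM per kb, and LEF1 0.008 CPM per kb, with 0 to 0.091 CPM in a library.

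The co-treatment comparison asked how the Wnt genes respond when H2O2 is present during differentiation. A single Wnt gene was called, the receptor FZD7, which was lower with H2O2. The antagonist FRZB and the receptor LGR5 had the next smallest p-values and were lower in all 3 treated libraries without passing the threshold. A gene was called when its Benjamini-Hochberg adjusted p from edgeR's quasi-likelihood test over all tested genes was below 0.05 and its absolute log2FC was above 0.6. Of the 59 genes, 39 passed the filter on low counts, and 1 of them was called, while 0.598% of all 22089 tested genes were called. The unadjusted p was under 0.05 for 14 of the 39 (35.9%), beside 8.15% of all genes. WNT16, which passed the filter through its treated libraries alone, was among the 14.

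FZD7 (chr2:202898578-202903164 on hg19) encodes a receptor known for both branches of the pathway. Its level was 102, 81.8 and 83.8 CPM in control replicates 1 to 3 and 60.5, 45.2 and 45.0 CPM in the treated replicates. All treated libraries lay below all controls. The log2FC was -0.83 (SE 0.15, 95% interval -1.12 to -0.54, adjusted p = 0.0285). The 95% intervals here and below use a normal approximation and are narrower than the test implies. Leaving out control replicate 2 (adjusted p = 0.079), treated replicate 2 (0.15) or treated replicate 3 (0.284) ended the call, with log2FC values of -0.89, -0.76 and -0.76. Scaling by library size alone gave -0.78 (adjusted p = 0.1), and 1 fit over both experiments gave -0.83 (adjusted p = 0.356). Whether less RNA per cell or fewer cells of a kind lay behind a lower level cannot be told apart in these bulk samples.

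FRZB, which encodes a secreted decoy for Wnt ligands, had 5.95, 4.18 and 4.97 CPM in controls and 2.06, 2.63 and 2.29 CPM in treated libraries. The groups did not overlap, and the log2FC was -1.10 (SE 0.22, adjusted p = 0.0583). DESeq2 and edgeR's exact test put its adjusted p at 0.000958 and 0.00323, and without a filter it was 0.00295. LGR5, a receptor for R-spondins and a marker of several stem cell populations, had 173, 169 and 135 CPM in controls and 118, 110.0 and 99.8 CPM in treated libraries. Here too every treated library lay below every control (log2FC -0.54, SE 0.13, adjusted p = 0.147).

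The antagonists did not move as a group. SFRP1, a ligand-binding antagonist, had 24.1, 17.4 and 18.6 CPM in controls and 26.0, 28.3 and 25.9 CPM in treated libraries (log2FC 0.42, SE 0.15, adjusted p = 0.416). SFRP4, of the same family, had 1.69 to 2.16 CPM in controls and 2.59 to 3.87 CPM in treated libraries (log2FC 0.79, SE 0.25, adjusted p = 0.311). In both genes the treated libraries lay above the controls. DKK1, which blocks LRP6, had 56.3, 63.7 and 74.8 CPM in controls and 89.3, 91.3 and 79.7 CPM in treated libraries, whereas DKK2 had 333, 347 and 387 CPM in controls and 293, 284 and 251 CPM in treated libraries (log2FC -0.36, SE 0.13, adjusted p = 0.387). The groups of DKK1 and DKK2 did not overlap either, in opposite directions. An antisense gene, PRKG1-AS1, overlaps DKK1, and the strand setting of the counting is not given in the sources used here.

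The abundant members of the other roles gave no call. CTNNB1 had 843 to 1064 CPM in controls and 869 to 989 CPM in treated libraries, with a log2FC of -0.02 (95% interval -0.28 to 0.25, adjusted p = 0.992). LRP6 had 191 to 212 CPM in controls and 151 to 186 CPM in treated libraries (log2FC -0.26, SE 0.13, adjusted p = 0.644), FZD3 a log2FC of -0.13 (SE 0.11, adjusted p = 0.858) and WNT3 one of -0.08 (SE 0.15, adjusted p = 0.947). TCF7 had 43.0, 25.8 and 26.0 CPM in controls and 28.0, 30.8 and 32 CPM in treated libraries, and the groups overlapped (log2FC -0.06, 95% interval -0.43 to 0.31, adjusted p = 0.974). APC, the scaffold of the destruction complex, had 197, 183 and 171 CPM in controls and 210, 267 and 242 CPM in treated libraries, all above the controls. Its log2FC was not past the threshold.

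Among the 39 tested genes, the groups did not overlap for 10 that were lower and 5 that were higher in treated libraries, 25.6% and 12.8%. Over all tested genes, 7.37% were lower and 6.57% higher in this way. The median log2FC of the 39 was -0.13, and that of all tested genes -0.00095. WNT16, one of the 5 higher, passed the filter through its treated libraries alone, so its place in that count was fixed by the filter. Beside these values, VIM of the mesenchymal list was called higher, with a log2FC of 1.16. The noradrenergic markers summed to 4952 to 5548 CPM in controls and 3913 to 4663 CPM in treated libraries, and their part in the results was not tested.

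**Figure D2:**
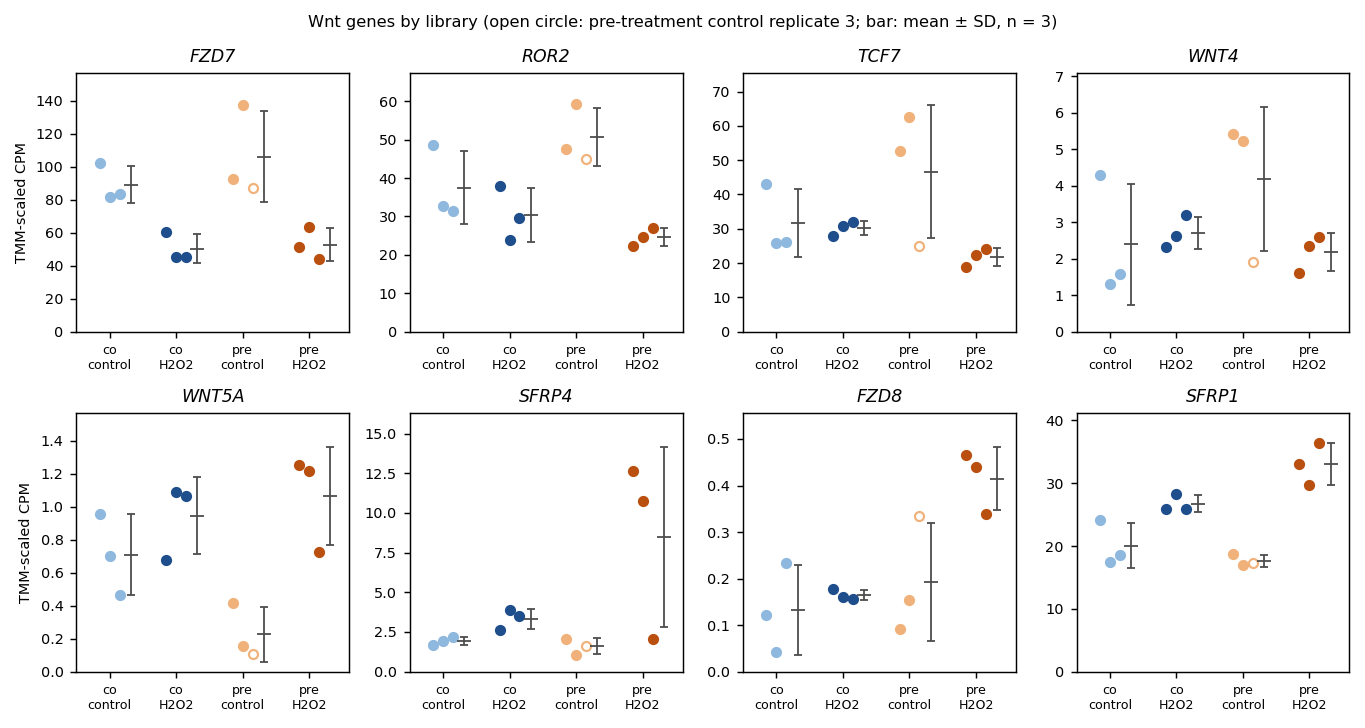
TMM-scaled CPM (vertical axes from 0) of 8 Wnt genes in each library of the 4 groups, with the mean ± SD of 3 replicates as a bar. FZD7 is lower with H2O2 in both experiments, and open circles show pre-treatment control replicate 3, which sits just above the treated libraries for TCF7 (24.9 CPM) and among them for WNT4 (1.91 CPM), but among the controls for FZD7, ROR2, WNT5A and SFRP1.

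The pre-treatment comparison asked what remains after H2O2 was given before differentiation. Over all 6 libraries no Wnt gene was called, whereas without control replicate 3 the receptors FZD7 and ROR2, the ligand WNT4 and the nuclear factor TCF7 were lower and the ligand WNT5A, the receptor FZD8 and the antagonist SFRP4 were higher. The threshold was an adjusted p below 0.05 and an absolute log2FC above 1. Over 6 libraries, 0 of 41 tested Wnt genes passed in edgeR's quasi-likelihood test, beside 0.0242% of 24743 genes. The unadjusted p was under 0.05 for 10 of the 41 (24.4%), beside 11.2% of all genes. DESeq2 called 4 of them (ROR2, SFRP4, TCF7, WNT5A) and edgeR's exact test 3 (ROR2, SFRP4, WNT5A), beside 501 and 231 of the 24743 genes. Without control replicate 3, 7 of 42 were called (16.7%), beside 11.2% of 26350 genes. In this fit 3 were higher and 4 lower, where 2.98% of all genes were higher and 8.23% lower, and scaling by library size alone gave 2 higher and 6 lower. Control replicates 1 and 2 alone then stood for the control group, which is also the pair of libraries with the most reads outside exons, and the part of this in the calls was not tested.

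Among the ligands, WNT4, known from kidney and gonad development, had 5.42, 5.23 and 1.91 CPM in control replicates 1 to 3 and 1.61, 2.35 and 2.59 CPM in treated libraries. Control replicate 3 lay within the treated range. The log2FC was -0.90 (SE 0.41, adjusted p = 0.459) over 6 libraries and -1.22 (SE 0.25, adjusted p = 0.0108) without control replicate 3. Without control replicate 2 as well, the adjusted p was 0.0652. An unnamed gene on the other strand overlaps WNT4. WNT5A, the classical ligand of ROR2 that acts without β-catenin, went the other way, at 0.417, 0.153 and 0.107 CPM in controls and 1.25, 1.22 and 0.726 CPM in treated libraries. The groups did not overlap, with log2FC values of 2.27 (SE 0.57, adjusted p = 0.32) and 1.94 (SE 0.50, adjusted p = 0.024). The 5-library call ended when control replicate 2 (adjusted p = 0.14), treated replicate 1 (0.073) or treated replicate 2 (0.0663) was dropped. These were low counts, from 7 to 23 reads in controls and 58 to 121 in treated libraries. WNT3, the most abundant ligand, had 15.2 to 19.8 CPM in controls and 12 to 21.7 CPM in treated libraries, and its log2FC was 0.07 over 6 libraries (adjusted p = 0.928) and 0.20 over 5 (adjusted p = 0.586).

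FZD7 again had the clearest difference among the abundant frizzleds. It had 92.8, 138 and 87.4 CPM in control replicates 1 to 3 and 51.1, 63.5 and 43.9 CPM in treated libraries. Every treated library lay below every control, replicate 3 included. The log2FC was -0.97 (SE 0.22, adjusted p = 0.32) over 6 libraries and -1.06 (SE 0.20, adjusted p = 0.0074) without control replicate 3. Leaving out control replicate 2 as well gave -0.74 (adjusted p = 0.0734), and leaving out treated replicate 3 gave -0.97 (adjusted p = 0.00895), short of the fold threshold. FZD8, a receptor at the edge of detection with 5 to 45 reads per library, had 0.091, 0.153 and 0.335 CPM in controls and 0.466, 0.441 and 0.338 CPM in treated libraries. Control replicate 3 and treated replicate 3 were nearly equal, and the log2FC was 1.09 (SE 0.60, adjusted p = 0.53) over 6 libraries and 1.84 (SE 0.55, adjusted p = 0.0393) over 5. Leaving out control replicate 1 (adjusted p = 0.166) or 2 (0.109), or treated replicate 1 (0.113) or 2 (0.0929), ended that call. FZD3 had 92.9 to 111 CPM in controls and 102 to 112 CPM in treated libraries (log2FC 0.10, adjusted p = 0.818 over 6 libraries and 0.08, adjusted p = 0.633, over 5).

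The make-up of the frizzled transcripts was shifted in the same libraries. FZD7 made up 49.6%, 45.4% and 47% of the summed frizzled CPM per kb in co-treatment controls and 40.1%, 35.3% and 34.5% with H2O2. In the pre-treatment experiment its share was 50%, 57% and 46.9% in controls and 36.8%, 39.7% and 34.2% in treated libraries. In both experiments every treated library lay below every control, also with control replicate 3. The summed frizzled level was 38.9 to 44.8 CPM per kb in co-treatment controls and 27.9 to 32.9 with H2O2, and 40.5 to 52.6 in pre-treatment controls and 28.0 to 34.8 CPM per kb in treated libraries. FZD3 took the largest part of the rest, with 14.9% to 17% and 17.4% to 21.8% in co-treatment controls and treated libraries. Its own level did not rise there, at 6.28 to 6.69 CPM per kb in controls and 5.73 to 6.20 CPM per kb with H2O2. These shares use the same counts as the tests above and are given as a description.

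**Figure D3:**
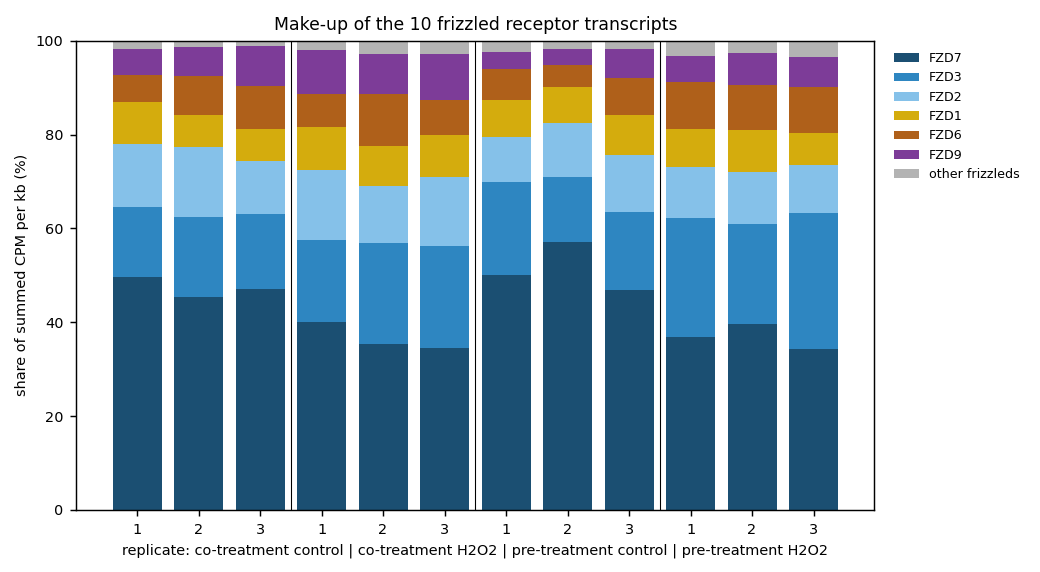
Share of each frizzled gene in the summed CPM per kb of the 10 frizzled genes (vertical axis, percent, from 0 to 100), 1 stacked bar per library, in the order co-treatment control, co-treatment H2O2, pre-treatment control and pre-treatment H2O2. FZD7, the bottom segment, lies between 45.4% and 57% in the 6 controls and between 34.2% and 40.1% in the 6 treated libraries.

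All 4 co-receptors had negative log2FC values in both experiments. ROR2, the receptor tyrosine kinase that binds WNT5A, had 47.6, 59.3 and 45.0 CPM in controls and 22.3, 24.7 and 27 CPM in treated libraries. The groups were well apart, also with control replicate 3. The log2FC was -1.01 (SE 0.17, adjusted p = 0.235) over 6 libraries and -1.04 (SE 0.15, adjusted p = 0.00284) without control replicate 3. It fell short of the fold threshold without control replicate 2 (-0.87) or treated replicate 1 (-0.98). LRP6, the main co-receptor for β-catenin signalling, had 242, 246 and 132 CPM in controls and 150.4, 153 and 162 CPM in treated libraries. Control replicate 3 was the lowest of the 6, and the log2FC was -0.38 (SE 0.24, adjusted p = 0.58) with it and -0.58 (SE 0.10, adjusted p = 0.00661) without it. LRP5, its paralogue, had 57.8, 79.2 and 47.8 CPM in controls and 29.5, 37.2 and 45.1 CPM in treated libraries. These groups did not overlap, and the log2FC was -0.69 (adjusted p = 0.338) over 6 libraries and -0.81 (adjusted p = 0.0191) over 5.

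Without the fold threshold, 11 of the 42 tested genes had an adjusted p below 0.05 over the 5 libraries, 5 higher and 6 lower, beside 26.1% of all genes. The 4 added were SFRP1 and CTNNB1, which were higher, and LRP6 and LRP5, which were lower. LRP5 was named after its values were seen.

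Of the antagonists, SFRP1 differed most evenly between the groups. It had 18.8, 17.0 and 17.2 CPM in controls and 33.1, 29.7 and 36.4 CPM in treated libraries. The groups were well apart, and replicate 3 of the controls lay with the others. The log2FC was 0.93 (SE 0.16, adjusted p = 0.242) over 6 libraries and 0.96 (SE 0.15, adjusted p = 0.00409) over 5, under the fold threshold. SFRP4 had 2.09, 1.07 and 1.63 CPM in controls and 12.7, 10.8 and 2.05 CPM in treated libraries. The treated libraries split, since replicate 3 lay within the control range, and the log2FC was 2.43 (SE 0.62, adjusted p = 0.32) over 6 libraries and 2.49 (SE 0.71, adjusted p = 0.0337) over 5. It was no longer called when control replicate 1 (adjusted p = 0.0817) or 2 (0.198), or treated replicate 1 (0.0812) or 2 (0.0751), was left out. FRZB had 3.59, 6.88 and 5.15 CPM in controls and 4.46, 4.60 and 3.04 CPM in treated libraries, with overlapping groups (log2FC -0.34, adjusted p = 0.697 over 6 libraries and -0.30, adjusted p = 0.502, over 5). DKK2 overlapped too, at 299 to 470.2 CPM in controls and 229 to 434 CPM in treated libraries (log2FC -0.16, adjusted p = 0.846 over 6 libraries and 0.01, adjusted p = 0.977, over 5).

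LGR5 had 101 to 147 CPM in controls and 124 to 134 CPM in treated libraries. Its log2FC was 0.06 (95% interval -0.28 to 0.40, adjusted p = 0.903) over 6 libraries and -0.04 (adjusted p = 0.82) over 5. CTNNB1 had 738, 708 and 1112 CPM in controls and 944, 909 and 916 CPM in treated libraries. Control replicate 3 was the highest of the 6 and replicates 1 and 2 the lowest, so that the log2FC was 0.14 (SE 0.24, adjusted p = 0.84) with that library and 0.42 (SE 0.12, adjusted p = 0.0312) without it. AXIN2, a feedback inhibitor that β-catenin induces in many tissues, had 23.9, 25.6 and 27.1 CPM in controls and 19.8, 23.6 and 20.4 CPM in treated libraries, all below the controls, and was not called with or without replicate 3.

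TCF7 encodes a TCF factor, and 1 of its upstream windows is printed above. It had 52.6, 62.5 and 24.9 CPM in control replicates 1 to 3 and 18.8, 22.2 and 24.0 CPM in treated libraries. Control replicate 3 lay just above the treated libraries and far below the other controls. The log2FC was -1.07 (SE 0.31, adjusted p = 0.32) over 6 libraries and -1.34 (SE 0.15, adjusted p = 0.00121) over 5, the smallest adjusted p of the Wnt genes in the 5-library fit. In the 5-library fit the call held without each further library, with log2FC from -1.45 to -1.20. The co-treatment controls had 25.8 to 43.0 CPM, so that the level in pre-treatment control replicates 1 and 2 was above all other libraries. SKP1, on the other strand, overlaps TCF7.

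Over all 6 libraries, the groups did not overlap for 7 lower and 4 higher of the 41 genes, 17.1% and 9.76%, beside 8.45% and 7.97% of all genes. Without control replicate 3 these were 13 lower and 6 higher of 42, 31% and 14.3%, beside 31.5% and 25.7% of all genes. The share of lower genes among the Wnt genes was therefore near that of all genes in the smaller set. The median log2FC was -0.11 in both, and -0.0066 and 0.011 over all genes. Beside these values, VIM and COL3A1 of the mesenchymal list were called higher over all 6 libraries, with log2FC values of 2.42 and 2.44, and 4 of the 10 mesenchymal markers tested had a log2FC below 0. Over the 5 libraries, 4 of the 11 mesenchymal markers tested were called higher, VIM (2.66), COL3A1 (2.48), DCN (2.95) and CD44 (1.11), and 3 had a log2FC below 0. The epithelial marker KRT18 (3.76) was also called higher. Of the 11 noradrenergic markers tested, GATA3 (-1.44) and DBH (-1.72) were called lower and 0 higher. This list did not move as a whole, with 6 log2FC values above 0, 5 below and a median of 0.12. Without the fold threshold, 3 of its genes passed as higher and 4 as lower. The mesenchymal markers summed to 382 to 492 CPM in controls and 462 to 503 CPM in treated libraries, the epithelial markers to 1.75 to 3.11 and 6.16 to 11.6 CPM, and the noradrenergic markers to 4076 to 5301 and 3952 to 4698 CPM. Their part in the Wnt values was not tested.

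**Figure D4:**
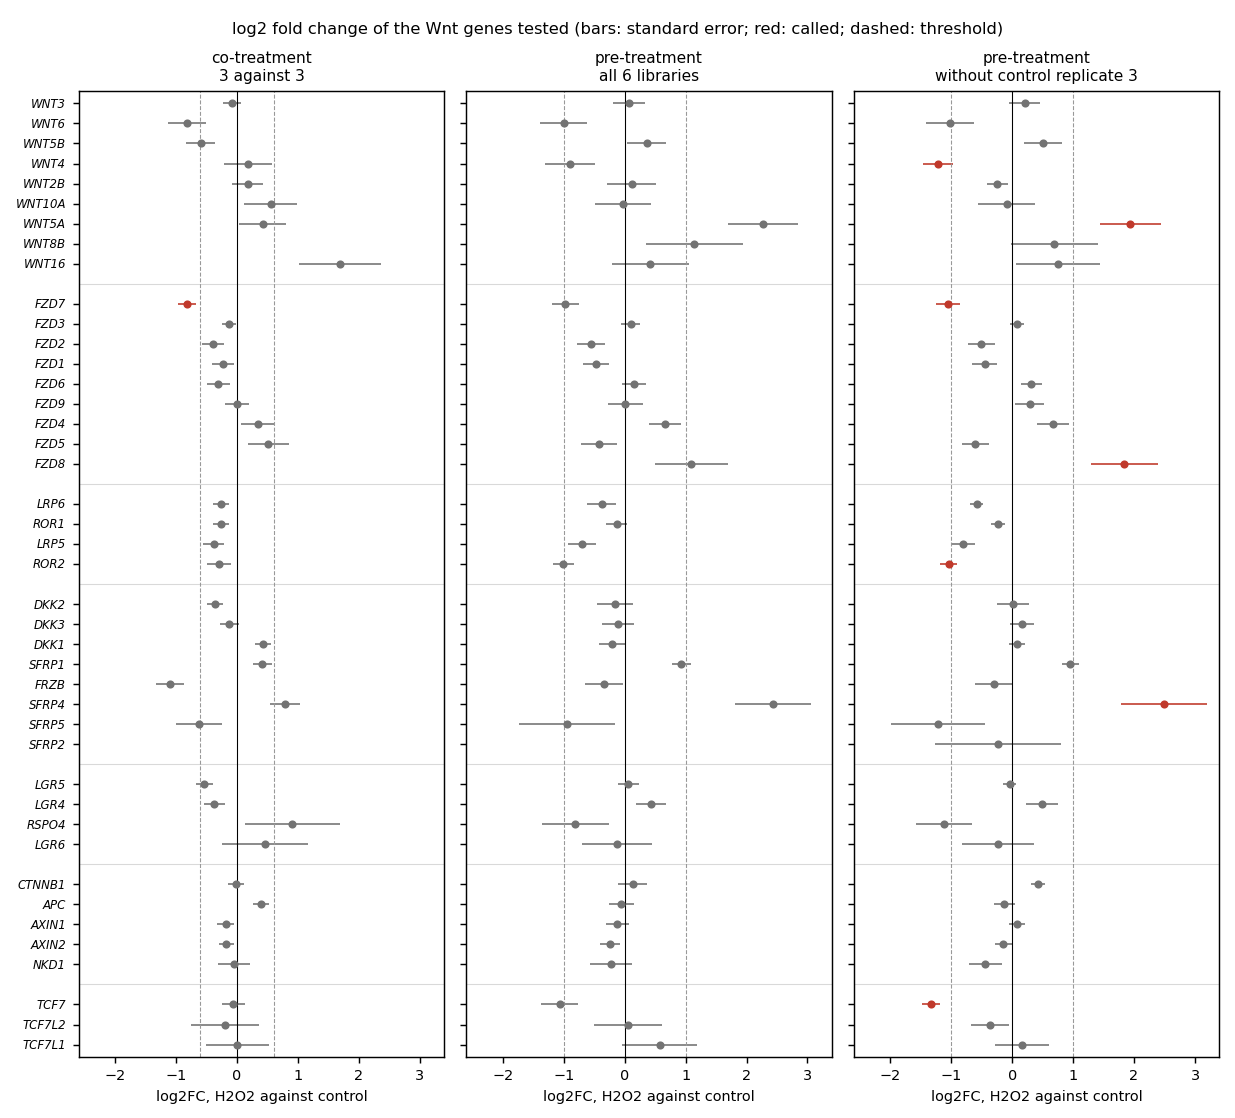
log2FC of H2O2 against control (horizontal axis) with its standard error for the Wnt genes tested, from left to right after co-treatment, after pre-treatment over 6 libraries and after pre-treatment without control replicate 3. Red points were called and dashed lines mark the fold thresholds of 0.6 and 1; FZD7 is called in the left and right panels, and no gene in the middle panel.

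Whether a Wnt gene responded differently in the 2 experiments was asked with an interaction term, with a call at an adjusted p below 0.05 and an absolute difference of log2FC above 1. Over all 12 libraries 0 of 42 tested Wnt genes were called, beside 0.0287% of 24407 genes. An unadjusted p under 0.05 was found for 9 of the 42, beside 8.94% of all genes. DESeq2 also called 0. Without pre-treatment control replicate 3, the unadjusted p was under 0.05 for 13 of the 42, beside 28.1% of 25668 genes. In that fit 1 of the 42 was called, beside 5.11% of all genes. This was TCF7, with a difference (pre minus co) of -1.33 (SE 0.27, adjusted p = 0.0142), against -1.04 (SE 0.40, adjusted p = 0.534) over 12 libraries. Leaving out pre-treatment control replicate 2 as well gave -1.13 (adjusted p = 0.0797). FZD7 was called in the co-treatment fit and in the 5-library pre-treatment fit, and its difference was -0.17 (adjusted p = 0.874) over 12 libraries and -0.28 (adjusted p = 0.513) over 11.

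The rest of the pathway was described with 46 further genes for Wnt secretion, receptor turnover, transduction, nuclear partners and planar polarity. After co-treatment 1 of 41 tested was called, TLE1, a corepressor that binds TCF factors, with a log2FC of -0.84, beside 0.598% of all genes called. After pre-treatment 0 of 44 were called over 6 libraries by edgeR's quasi-likelihood test. The unadjusted p was under 0.05 for 15 of the 44, beside 11.2% of all genes. Over the 5 libraries it was under 0.05 for 21 of the 44, beside 40.5% of all genes. Over the 5 libraries, 8 of 44 were called, all lower, beside 8.23% of all genes called lower and 2.98% called higher. These were the kinase gene GSK3B (log2FC -1.08) and the tankyrase gene TNKS (-1.03), the nuclear partners BCL9 (-1.67), BCL9L (-2.44) and TLE3 (-1.40), and the planar polarity genes VANGL2 (-1.28), CELSR2 (-2.05) and CELSR3 (-1.33).

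Of 21 genes widely described as induced by β-catenin, 15 were tested in each comparison. MSX2 and ID2 were called higher after co-treatment, with log2FC values of 1.88 and 0.73, and TNFRSF19 lower, at -0.85. Beside these, 0.598% of all genes were called. Over the 6 pre-treatment libraries 0 were called by edgeR's quasi-likelihood test, and 6 of the 15 had an unadjusted p under 0.05, beside 11.2% of all genes. Over 5 libraries MSX2 (1.30) and CD44 (1.11) were called higher and PPARD (-1.52) and EPHB3 (-1.17) lower, 4 of the 15 beside 11.2% of all genes. There, 11 of the 15 had an unadjusted p under 0.05, beside 40.5% of all genes. CD44 also stood in the mesenchymal list. The median log2FC of the 15 was 0.16 after co-treatment, -0.19 over the 6 pre-treatment libraries and 0.02 without control replicate 3.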

How the data were processed

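RNA of 12 SH-SY5Y samples was read as counts per gene symbol. The authors trimmed reads with cutadapt (version 2.10), aligned them to hg19 with HISAT2 (2.1.0) and counted them with HTSeq (0.7.2), and the deposited values are raw counts per library, unnormalized and unfiltered. FastQC (0.11.8) is also named in the submitters' processing notes. The strand setting of the counting and the annotation version are not given in the sources used here. Entries for reads not counted on a gene, 40% to 59.9% of all counts in a library, were left out of library sizes and tests. Deposited tables of the authors' own fold changes and p-values were not used.

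The analysis used edgeR 4.0.16 and limma 3.58.1 under R 4.3.3, with TMM scaling. Genes were kept when their CPM reached that of 5 counts in the smallest library, in a number of libraries equal to the smaller group. Within each experiment, edgeR's quasi-likelihood test set treated against control libraries, with Benjamini-Hochberg adjustment over all tested genes. Calls needed an adjusted p below 0.05 and a log2FC beyond 0.6 in either direction after co-treatment, or beyond 1 in the other fits. The size of the estimates was checked on simulated counts with known changes in genes with many reads. The simulation held no library that stands apart, so it does not bear on control replicate 3. Nor does it bear on calls of genes with few reads. No 2 replicates agreed within counting error (chi-square per degree of freedom 27.6 to 613). The labels do not say that replicates came from separate cultures, so p-values measure the spread between these samples, which may be technical. The limit given for 0 counts is 3 counts and covers counting error only. Transcript lengths and positions come from a GENCODE annotation lifted to GRCh37, and upstream windows from RefSeq.

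The members and lists were chosen with earlier results of these data known. Fold changes, SE and adjusted p are given for members called in any fit, FZD7, the member of each role with the highest CPM, and the 3 members with the smallest adjusted p in each of the co-treatment and pre-treatment fits. Apart from LRP5, other genes with a fold change were called members of the pathway, target or marker lists. Alternatives were DESeq2 1.42.0, edgeR's exact test, RLE factors, library size alone, no filter, no fold threshold, a replicate block, 1 fit over both experiments and each library left out in turn.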

Additional observations from a re-analysis of the deposited data

Results flagged for a closer look

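A single result differed between the experiments by a test of the difference. In edgeR's interaction test over 11 libraries, without pre-treatment control replicate 3, the log2FC of TCF7 after pre-treatment minus that after co-treatment was -1.33 (adjusted p = 0.0142). TCF7 was lower in 3 of 3 treated libraries than in both remaining controls after pre-treatment, and its groups overlapped after co-treatment. Over all 12 libraries the difference was -1.04 (adjusted p = 0.534), and with pre-treatment control replicates 2 and 3 both left out it was -1.13 (adjusted p = 0.0797).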

How the results depend on the processing

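The labels do not say whether same-numbered control and treated samples belong together. Same-numbered libraries had residual correlations of -0.0785, -0.0786 and -0.0435 (co-treatment) and -0.225, 0.0264 and -0.273 (pre-treatment). Without control replicate 3 the pre-treatment values were 0.0917 and 0.00287. With so few libraries these correlations cannot tell whether samples shared a batch. The replicate block is therefore given as an alternative and not as a paired analysis. With a replicate block the numbers of Wnt genes called were 1 (co-treatment), 0 (pre-treatment, 6 libraries), 6 (5 libraries, FZD7 lost), 0 (interaction, 12 libraries) and 4 (interaction, 11 libraries). Over all genes these fits called 180, 0, 3768, 0 and 1531. The co-treatment count of 1 became 2 with DESeq2 and with the exact test, 3 without a filter, 0 with library size alone and 0 with 1 fit over both experiments, and 0 to 1 with a library left out. Over all genes, 132 were called in the main fit, 307 with DESeq2 and 307 with the exact test. Without a filter it was 443, with library size alone 80 and with 1 fit over both experiments 3. The 6-library pre-treatment count of 0 became 4 with DESeq2, 3 with the exact test and 2 without a filter, and 0 to 7 with a library left out, where 7 came from leaving out control replicate 3 and each other library gave 0. Over all genes, 6 were called in the main fit, 501 with DESeq2, 231 with the exact test, 300 without a filter and 2952 without control replicate 3. The 5-library count of 7 became 11 without the fold threshold, and 1 (without control replicate 2) to 7 with a library left out. It was 3 without treated replicate 1, where 1784 of all 25957 genes were called, against 2952 of 26350 in the main fit. With 1 control left, that library is assumed to vary like the treated ones. The interaction count was 0 to 1 over 12 libraries with a library left out. Over 11 libraries it was 3 without a filter, and 0 (without pre-treatment control replicate 2) to 4 (without co-treatment control replicate 1) with a library left out, and 3 without pre-treatment treated replicate 3. Over all genes, the main 11-library fit called 1312 of 25668 and the fit without a filter 2236 of 42322. It was 2459 of 25515 without co-treatment control replicate 1 and 1546 of 25514 without pre-treatment treated replicate 3. The counts of Wnt genes are therefore to be read beside those of all genes. The cause of these changes was not tested.

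Library size alone moved the median log2FC of all genes from 0.011 to -0.21 in the 5-library fit. Direction changed only for values that were not called. With library size alone the log2FC was 0.038 for CTNNB1 after co-treatment, -0.028 for LGR5 over 6 libraries, and -0.21 for DKK2, -0.14 for FZD3 and -0.023 for WNT3 over 5. DKK2 over 5 libraries also gave -0.0079 with DESeq2, -0.0080 with RLE factors, -0.016 without a filter and -0.045 with 1 fit over both experiments. With a library left out, the co-treatment log2FC ranged from -0.19 to 0.23 for TCF7, -0.13 to 0.93 for WNT4, -0.094 to 0.072 for CTNNB1 and -0.16 to 0.030 for WNT3. Over 6 pre-treatment libraries it ranged from -0.064 to 0.30 for WNT3, -0.038 to 0.16 for LGR5 and -0.35 to 0.071 for DKK2, and over 5 from -0.10 to 0.036 for LGR5, -0.23 to 0.33 for DKK2 and -0.68 to 0.24 for FRZB. Under all alternatives, 517 values of single genes kept their direction and side of the threshold, 26 changed direction, 22 passed the threshold newly and 25 no longer passed it. At this depth, genes with under 10 reads in a library, such as WNT5A and FZD8 in controls, carry wide errors.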
